A study of Mus musculus with 12 samples.

Results

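The complement system was followed through 9 genes in the gastrocnemius muscle of mice that model facioscapulohumeral muscular dystrophy (FSHD), a muscle disease caused by expression of the normally silent DUX4 gene in muscle fibers. The 9 genes were taken by symbol from the 37748 genes of the expression table, and all 9 were found once. They are C1qa, C1qb and C1qc, C4b, C2, C3, Cfb, Cfp and Serping1. In the 2 models that received tamoxifen, all 9 were higher than in control muscle, and they separated by how far they rose. Under the main scaling, the C1q chains rose 12.6- to 18.1-fold in the severe model and Cfb 8.38-fold. C3, C2 and Serping1 rose 1.61- to 1.71-fold.

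RNA-seq was performed on 12 mice of 13 weeks of age, 3 per group, with 1 library per mouse. Control mice were ACTA1-MCM/+ and carried only a transgene for a tamoxifen-inducible Cre recombinase made in skeletal muscle, with no tamoxifen (TMX). FLExDUX4/+ mice, abbreviated FLExD, carried only the conditional DUX4 transgene in the Rosa26 locus, also with no TMX, and their sample labels give mild pathology. The mild model of the study is another genotype, which carries both transgenes without TMX and was not analysed here. The moderate and severe models were FLExDUX4/+;MCM/+ mice with both transgenes. The moderate model received 1 intraperitoneal injection of TMX at 5 mg/kg and the severe model received 2 at 10 mg/kg on consecutive days, and muscles were taken at day 9. Cre recombination is mosaic in this design, with the transgene recombined in only a part of the muscle nuclei. Which fibers of these muscles expressed DUX4 was not measured here. No control mouse carried both transgenes or received TMX, so the effect of DUX4 cannot be told apart from that of TMX or of the transgene combination when a model is compared with controls. In whole muscle, a change in the number of cells of a type and a change in RNA per cell cannot be told apart either.

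Complement is a cascade of plasma proteins that tags and lyses targets and recruits phagocytes. In the classical pathway, the C1q molecule, built from A, B and C chains, binds its target and the attached proteases C1r and C1s cut C4 and C2, which then form an enzyme that cleaves C3. In the alternative pathway, factor B (Cfb) binds deposited C3b and is cut by factor D (Cfd). The C3-cleaving enzyme that results is stabilized by properdin (Cfp). C1 inhibitor (Serping1) blocks C1r, C1s and the lectin pathway proteases. Most plasma complement comes from liver, but C1q and properdin are made by myeloid cells, and C3, C1r, C1s and C1 inhibitor are also made by fibroblasts and other local cells.

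The genes lie in a few places of the mouse genome (GRCm38, GENCODE M21), all on the minus strand. The 3 C1q chain genes are neighbours on chromosome 4, C1qb at 136880129 to 136886187, C1qc at 136889804 to 136893065 and C1qa at 136895917 to 136898803, each with 3 exons in its longest transcript. On chromosome 17, C4b spans 34728380 to 34743882, Cfb 34856374 to 34862518 and C2 34862604 to 34898265, and C3 lies apart at 57203970 to 57228136. Cfp is on chromosome X at 20925454 to 20931555 and Serping1 on chromosome 2 at 84765387 to 84775444.

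Sequence sharing limits the reading of 3 members. Of the windows of 50 bases, the read length, in the longest transcript, 35.2% of those of C4b were also found in C4a, the neighbouring copy of the gene. The read-through gene Gm20547 overlaps both C2 and Cfb, and 58% of the windows of C2 and 81.4% of those of Cfb were found in it as well. The authors' counting divides such reads between genes, so the counts of C4b, C2 and Cfb are uncertain by the size of that division. The other 6 members had no window in common with another gene. Gm20547 took 1.55% to 10.4% of the counts of Cfb, C2 and Gm20547 together. Zbtb12 lies within the span of C2 on the opposite strand, and the library preparation in the labels has no step that marks strand.

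The bases just upstream of the start sites are shown for a pair of C1q chain genes that moved together and for C3, which moved less. They were read from the RefSeq promoter table (GRCm38.p6), which matched 4 of the 9 members (C1qb, C1qc, C3 and Cfp). Each run is the 250 bases before the RefSeq start on the gene's own strand, 5′ to 3′. The first is from chr4:136886201-136886450, the second from chr4:136892915-136893164 and the third from chr17:57228137-57228386, all on the minus strand. GENCODE M21 starts C1qc at 136893065, inside the second run, so part of that run lies within the annotated gene. Capitals mark matches to the searched motifs.
C1qb: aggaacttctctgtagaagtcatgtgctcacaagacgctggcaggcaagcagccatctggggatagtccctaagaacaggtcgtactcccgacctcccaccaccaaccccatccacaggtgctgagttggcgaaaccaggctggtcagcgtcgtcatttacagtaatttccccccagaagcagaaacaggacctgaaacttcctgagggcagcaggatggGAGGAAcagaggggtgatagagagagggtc
C1qc: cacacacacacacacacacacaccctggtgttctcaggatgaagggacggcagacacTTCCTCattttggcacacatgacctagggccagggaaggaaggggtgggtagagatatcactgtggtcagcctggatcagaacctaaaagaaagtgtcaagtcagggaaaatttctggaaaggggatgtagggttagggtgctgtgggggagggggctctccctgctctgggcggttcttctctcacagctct
C3: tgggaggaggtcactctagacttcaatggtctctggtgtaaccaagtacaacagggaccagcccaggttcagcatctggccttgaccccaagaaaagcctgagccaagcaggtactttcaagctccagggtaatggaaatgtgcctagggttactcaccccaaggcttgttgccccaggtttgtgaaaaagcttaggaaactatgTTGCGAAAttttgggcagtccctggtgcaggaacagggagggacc

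In both C1q windows the capitals are GAGGAA or its complement TTCCTC, letters bound by the myeloid factor PU.1, on the gene strand in C1qb at -30 to -25 from the start and on the other strand in C1qc at -193 to -188. These letters occur on either strand in 23.3% of the same windows of 32851 promoters, so their presence in 2 of 4 is a description only. In C3 the capitals match TTGCNNAA, a C/EBP motif, at -45 to -38, which 9.56% of the promoters hold. The other motifs searched on both strands were GGAA and then GAAA 2 bases on (PU.1 with an interferon regulatory factor), GAAA and then GAAA 2 bases on (an interferon response element), TTCNNNGAA (a STAT site), GGG and then TTTCC 2 bases on (NF-kB) and TATAAA. The first and the second of these can overlap, and none of the 5 was found in the 4 windows. They occur in 2.3%, 2.98%, 7.02%, 1.41% and 12.4% of all promoters.

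Levels are given as CPM, read counts scaled to a common library size, on library sizes adjusted by trimmed mean of M values (TMM), a factor that keeps genes with large changes from shifting all others. Total counts ranged from 23796902 to 29136403 per library, and 3 counts, the floor used here, corresponded to 0.0676 to 0.155 CPM. The TMM factors were 0.706 to 0.76 in the control and FLExD libraries, 1.06 to 1.13 in the moderate and 1.69 to 1.87 in the severe libraries, and they moved with the level of muscle fiber transcripts. The summed level of 9 myofiber markers was 154000 to 203000 CPM in controls, 65500 to 79300 in the moderate and 9790 to 17900 in the severe model. The choice of scaling therefore bears on comparisons with the severe model and is given beside the results it changes. A gene was called when its edgeR quasi-likelihood F-test gave a Benjamini-Hochberg adjusted p under 0.05 over the 16679 genes tested and its log2 fold change was at least 0.5 in size.

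All 9 members passed the filter on low counts. They were chosen with earlier results of these data known, so the counts below describe them and do not test them against other genes. In the moderate model all 9 were called higher than controls, where 24.4% of all genes tested were called higher and 17% lower. In the severe model all 9 were again called higher, where 32.9% of all genes were called higher and 27.9% lower. The median log2 fold change of the members was 1.71 (moderate) and 2.23 (severe), beside 0.04 and 0.08 over all genes. For each member the 3 mice of either model lay above all 3 control mice, as they did for 32.6% (moderate) and 40% (severe) of all genes. Between FLExD and control mice none was called (0 of 9, with 0% of all genes called higher and 0.006% lower by edgeR), and 0 of 9 had an unadjusted p under 0.05, where 3.83% of all genes did. DESeq2 also called 0 of the 9 in that comparison. From the moderate to the severe model 5 of 9 were called higher (17.6% of all genes) and 0 lower (18.8% of all genes). In that comparison 6 of 9 had all severe mice above all moderate mice, as 30.5% of all genes did.

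**Figure D1:**
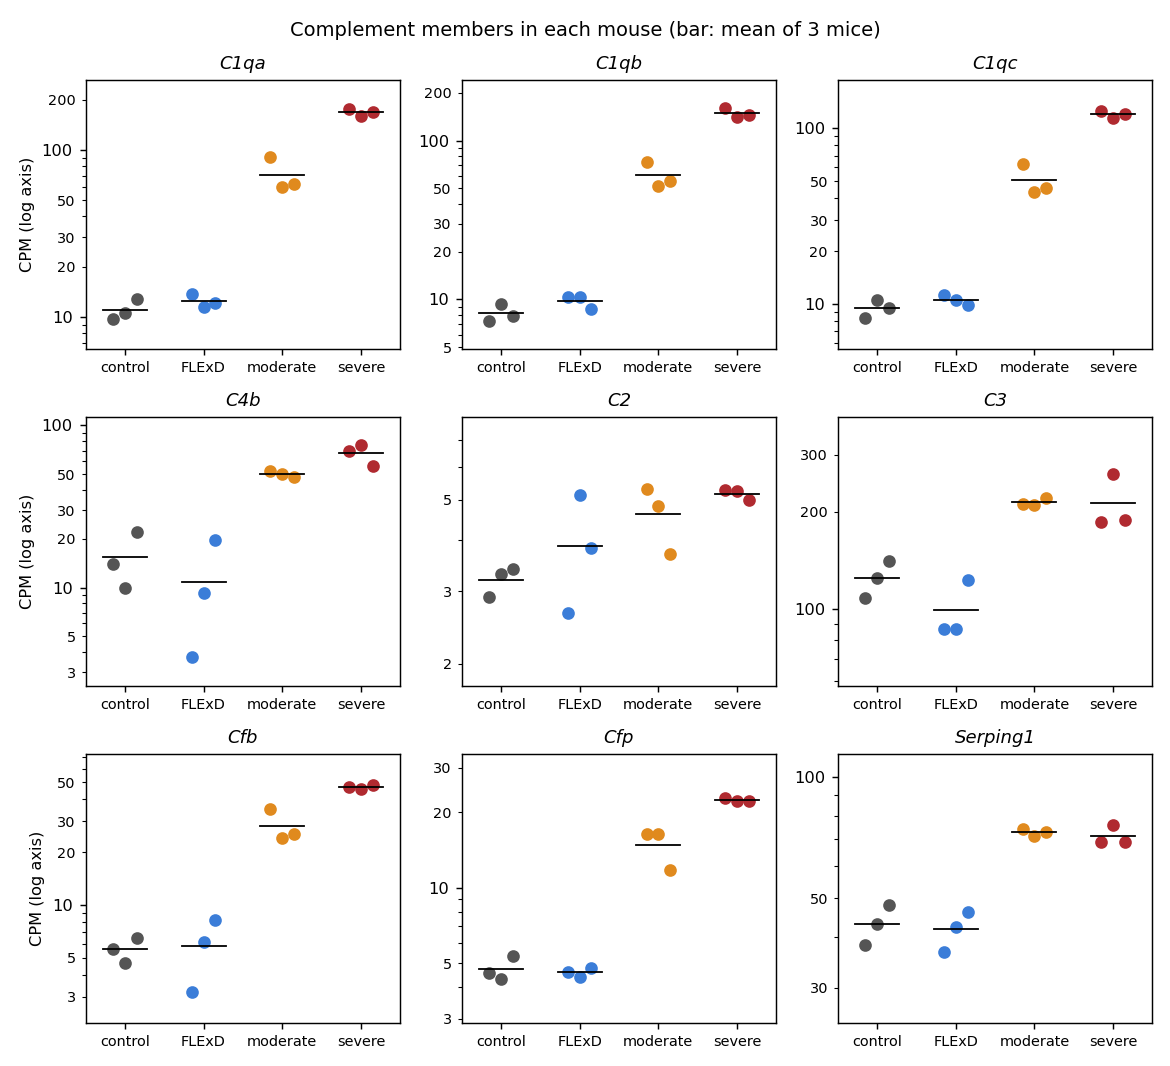
Level of each complement member in each of 12 mice, in CPM on a logarithmic axis, by group; points are mice and the bar is the mean of 3. In every panel the moderate and severe points lie above the control points, and the severe points lie clear above the moderate ones for C1qa, C1qb, C1qc, C4b, Cfb and Cfp but not for C2, C3 and Serping1.

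The C1q chains, the recognition molecule of the classical pathway, changed most. C1qa was at 9.69, 10.6 and 12.8 CPM in the 3 control mice and at 11.5, 12.1 and 13.7 CPM in the FLExD mice. It was at 60.2, 62.8 and 90.6 CPM in the moderate mice and at 161, 170 and 176 CPM in the severe mice. The control and FLExD values overlapped, all moderate values lay above them, and all severe values lay above the moderate ones. The log2 fold change of C1qa against control was 2.69 (SE 0.16, adjusted p = 1.35e-08) in the moderate and 3.94 (SE 0.16, adjusted p = 1.59e-10) in the severe model, or 6.45-fold and 15.3-fold.

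C1qb was at 7.36, 7.92 and 9.39 CPM in controls and at 8.68, 10.3 and 10.3 CPM in FLExD mice. In the moderate mice it was at 52, 55.4 and 73.5 CPM and in the severe mice at 141, 145 and 161 CPM. The order of the groups was that of C1qa, with FLExD and control overlapping and the 2 models apart from them and from each other. The fold against control was 7.33 in the moderate (log2 2.87, SE 0.14, adjusted p = 3.84e-09) and 18.1 in the severe model (log2 4.18, SE 0.15, adjusted p = 5.95e-11).

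C1qc was at 8.39, 9.53 and 10.6 CPM in controls and at 9.93, 10.6 and 11.3 CPM in FLExD mice. It was at 43.7, 45.9 and 62.7 CPM in the moderate and at 114, 120 and 126 CPM in the severe mice. The groups again did not overlap between control, moderate and severe. The rise was 5.33-fold in the moderate (log2 2.42, SE 0.14, adjusted p = 9.85e-09) and 12.6-fold in the severe model (log2 3.65, SE 0.14, adjusted p = 8.46e-11). In all 3 chains mouse 1236 was the highest of the moderate mice. Without it, the moderate log2 fold changes were 2.48 for C1qa, 2.71 for C1qb and 2.24 for C1qc, and all 3 were still called.

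The severe model exceeded the moderate one by a log2 fold change of 1.25 (SE 0.14, adjusted p = 1.26e-05) for C1qa, 1.30 (SE 0.13, adjusted p = 3.71e-06) for C1qb and 1.24 (SE 0.12, adjusted p = 4.38e-06) for C1qc. These 3 differences were called under all 22 alternative settings of the analysis, which the C1q genes alone of the members did in this comparison.

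The 3 chains are used together in one protein, and their ratios within a library do not depend on its scaling. In TPM, a unit that divides by transcript length, C1qb was 0.561 to 0.798 of C1qa in controls, 0.648 to 0.802 in FLExD, 0.733 to 0.795 in moderate and 0.772 to 0.825 in severe mice. C1qc was 0.704 to 0.938 of C1qa in controls, 0.764 to 0.859 in FLExD, 0.648 to 0.682 in moderate and 0.661 to 0.67 in severe mice. The C1qb ratio overlapped between controls and both models. The C1qc ratio lay lower in both models than in all 6 mice without TMX, so C1qc rose by less than C1qa.

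C4b, the C4 copy that encodes the active component, varied more between mice than any other member in the 2 groups without TMX. It was at 10, 14 and 22 CPM in controls and at 3.72, 9.31 and 19.6 CPM in FLExD mice. It was at 48.4, 50.3 and 52.2 CPM in the moderate and at 56.2, 69.9 and 75.3 CPM in the severe mice. Values of the control and FLExD mice spread widely, with FLExD mouse 1358 the lowest, and those of the models were higher in every mouse. The rise was 3.28-fold in the moderate (log2 1.71, SE 0.47, adjusted p = 0.0123) and 4.37-fold in the severe model (log2 2.13, SE 0.47, adjusted p = 0.00265). Without control mouse 1246 the moderate value was 1.45 with an adjusted p of 0.0523 and was no longer called. All severe mice were above all moderate mice, but the log2 difference of 0.42 (SE 0.44) was not called (adjusted p = 0.462).

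C4a, its neighbouring copy, was at 10 to 12 counts in controls, 15 to 20 in moderate and 17 to 25 in severe libraries. With TMM it was called in no comparison. With library size alone it was called higher than control in the moderate (log2 0.8) and severe model (1.25). The ratio of C4b to C4a counts was 17.7 to 46 in controls, 6.67 to 35.3 in FLExD, 74.8 to 98.3 in moderate and 126 to 139 in severe mice. The C4 counts were thus assigned mostly to C4b in every group, and to the largest part in the models, as far as the counting could part the copies.

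C2, the protease that joins C4b, had the smallest log2 change in the severe model, within 1 SE of those of Serping1 and C3. It was at 2.9, 3.3 and 3.39 CPM in controls and at 2.65, 3.82 and 5.13 CPM in FLExD mice. It was at 3.69, 4.84 and 5.31 CPM in the moderate and at 4.99, 5.25 and 5.3 CPM in the severe mice. The models lay above the controls, but the FLExD mice spread over the range of controls and models. The log2 fold change was 0.52 (SE 0.21, adjusted p = 0.0468) in the moderate and 0.69 (SE 0.2, adjusted p = 0.00724) in the severe model. The moderate call was narrow and was lost in 14 of the 22 alternatives. Its adjusted p over them ran from 0.000354 to 0.166, and leaving out any mouse other than moderate mouse 1331 ended it, either by the p or by a log2 value under 0.5.

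C3, the central component on which all pathways converge, rose by less than the C1q chains. It was at 108, 125 and 141 CPM in controls and at 86.9, 87 and 123 CPM in FLExD mice. It was at 210, 211 and 220 CPM in the moderate and at 186, 189 and 262 CPM in the severe mice. The FLExD mice overlapped the controls from below (log2 -0.33, unadjusted p = 0.0604, adjusted p = 1), and the moderate values fell within the spread of the severe ones. C3 rose 1.72-fold in the moderate (log2 0.78, SE 0.16, adjusted p = 0.000964) and 1.71-fold in the severe model (log2 0.77, SE 0.16, adjusted p = 0.000632).

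Factor B, the protease of the alternative pathway, rose far more than C3. Cfb was at 4.68, 5.65 and 6.52 CPM in controls and at 3.2, 6.19 and 8.21 CPM in FLExD mice. It was at 24.1, 25.5 and 35.4 CPM in the moderate and at 45.9, 47.2 and 48.4 CPM in the severe mice. As for C4b and C2, FLExD mouse 1358 was the lowest of all 12, while the groups of the 2 models lay apart from the controls and from each other. The rise was 5.04-fold in the moderate (log2 2.33, SE 0.26, adjusted p = 1.27e-05) and 8.38-fold in the severe model (log2 3.07, SE 0.26, adjusted p = 4.85e-07). From moderate to severe, the log2 difference was 0.73 (SE 0.23, adjusted p = 0.0175), and that call was lost without moderate mouse 1308 (adjusted p = 0.0697), moderate mouse 1331 (0.0625) or severe mouse 1047 (0.0574).

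Properdin, which stabilizes the alternative pathway convertase, rose by step from control to moderate to severe. Cfp was at 4.34, 4.56 and 5.36 CPM in controls and at 4.41, 4.62 and 4.77 CPM in FLExD mice. It was at 11.8, 16.3 and 16.4 CPM in the moderate and at 22.2, 22.2 and 22.7 CPM in the severe mice. The 2 groups without TMX overlapped and the 3 levels of control, moderate and severe did not. Cfp rose 3.12-fold in the moderate (log2 1.64, SE 0.13, adjusted p = 2.1e-07) and 4.71-fold in the severe model (log2 2.23, SE 0.13, adjusted p = 2.52e-09). The severe model exceeded the moderate by 0.59 on the log2 scale (SE 0.12, adjusted p = 0.000827), which fell to 0.47, below the fold threshold, without moderate mouse 1331.

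C1 inhibitor, the only regulator among the 9, rose by about as much as C3. Serping1 was at 38.2, 43.1 and 48.2 CPM in controls and at 36.8, 42.5 and 46.2 CPM in FLExD mice. It was at 71.3, 72.8 and 74.1 CPM in the moderate and at 68.8, 68.9 and 75.9 CPM in the severe mice. The 2 groups without TMX overlapped each other, as did the 2 models. The rise was 1.69-fold in the moderate (log2 0.75, SE 0.1, adjusted p = 2.36e-05) and 1.65-fold in the severe model (log2 0.72, SE 0.1, adjusted p = 1.59e-05).

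**Figure D2:**
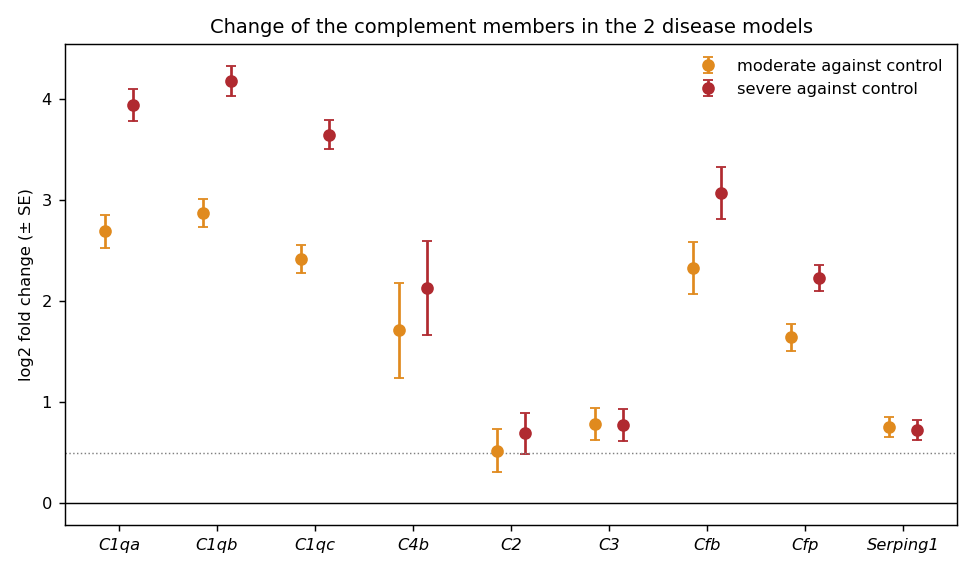
Log2 fold change of each member against control in the moderate and severe models, with bars of 1 SE from the edgeR fit; the dotted line is the fold threshold of 0.5. The severe value lies 1.24 to 1.30 above the moderate one for the C1q chains, whereas the values of C3 and Serping1 coincide.

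Whether C3, Serping1 and C2 differed between the models depended on the scaling. With TMM, the log2 difference of severe over moderate was -0.01 (SE 0.16, adjusted p = 0.97) for C3, -0.03 (SE 0.1, adjusted p = 0.812) for Serping1 and 0.17 (SE 0.19, adjusted p = 0.482) for C2. With library size alone it was 0.69 for C3, 0.67 for Serping1 and 0.86 for C2, and all 3 were called higher, but there the median of all genes was shifted by 0.72, against 0.02 with TMM. With limma on log2(TPM + 1) it was 0.66 for C3 and 0.68 for Serping1, where the median of all genes was 0.49. Relative to the median gene, C3 lay at -0.03 to 0.17 and Serping1 at -0.05 to 0.19 under these 3 scalings, whereas C1qa lay at 1.22 to 1.49. The size of the rise against control depended on the scaling too. With library size alone the severe log2 values were 2.07 for C3, 2.03 for Serping1 and 1.99 for C2, with the median of all genes also shifted.

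**Figure D3:**
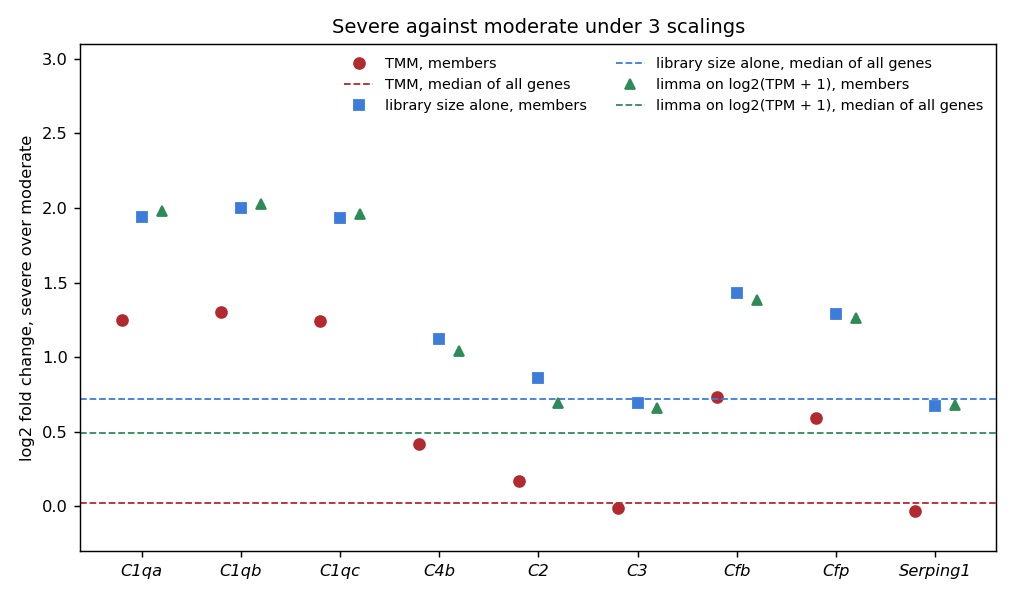
Log2 fold change of severe over moderate for each member under TMM, library size alone and limma on log2(TPM + 1), with dashed lines at the median of all genes under each. The C1q chains lie more than 1 log2 unit above the dashed line of every scaling, and C3 and Serping1 lie within 0.2 of it.

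A ratio of 2 members within a library is free of this choice. In TPM, the ratio of C1qa to C3 was 0.438 to 0.468 in controls, 0.516 to 0.803 in FLExD, 1.51 to 2.23 in moderate and 3.29 to 5.02 in severe mice. The 4 ranges followed one another without overlap; 0.1 is the smallest two-sided p that exact permutation of 3 against 3 mice allows. The ratio of C1qa to Serping1 was 0.445 to 0.477 in controls, 1.53 to 2.2 in moderate and 3.83 to 4.6 in severe mice, with FLExD mice at 0.472 to 0.682. These ratios ordered the groups in the same way as the levels of C1qa.

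Per length, the order of the members changed between the groups. In controls C3 and Serping1 led with a mean of 22.9 ± 3.7 and 22.7 ± 3.31 TPM (SD, n = 3), which did not differ beyond their spread. The C1q chains followed at 10.5 ± 1.78 for C1qa, 8.48 ± 1.03 for C1qc and 7.03 ± 0.885 TPM for C1qb, and then Cfb at 2.99 ± 0.531, C4b at 2.89 ± 1.05 and Cfp at 2.67 ± 0.379 TPM, which overlapped, and C2 at 1.73 ± 0.123 TPM. In the severe model the C1q chains led, at 368 ± 32.4 for C1qa, 294 ± 35.5 for C1qb and 244 ± 23.3 TPM for C1qc. C3 and Serping1 were then at 87.4 ± 22.2 and 86.3 ± 10.6 TPM, followed by Cfb at 42.2 ± 3.98, Cfp at 28.6 ± 2.58, C4b at 27.7 ± 5.52 and C2 at 5.56 ± 0.855 TPM. TPM values carry no TMM factor, so in this ranking they serve to order genes within a group and not to compare groups.

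The profiles of the members were compared as log2 CPM minus the control mean over the 12 libraries, by the root mean square (RMS) difference. The closest pairs were C3 with Serping1 (0.19), C1qa with C1qb (0.2) and C1qa with C1qc (0.22), followed by C2 with Serping1 (0.27). The most distant pair was C1qb with C2 (2.12). Cfb lay nearest to C1qc (0.47) and C4b nearest to Cfp (0.63), so the members ran from a group of 3 that moved little to the 3 C1q chains that moved most, with C4b, Cfp and Cfb between. Among 15456 other genes, the profile of the mean of the C1q chains was most like those of Chrna1 (0.15), a subunit of the muscle acetylcholine receptor, Aoah (0.18) and Lcp1 (0.18), an actin-bundling protein of leukocytes. Serping1 was most like Itgb1 (0.1), the integrin beta-1 chain, and C3 was most like Pigt (0.15) and Lbp (0.17), the lipopolysaccharide-binding protein. Cfp was most like Hist1h2be (0.09) and Cfb most like Nfam1 (0.21). C4b had no gene closer than Flt3 (0.39), and C2 was nearest to 4930405P13Rik (0.17).

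Markers of other cell types moved with these changes. All 10 macrophage markers (Adgre1, listed under its older symbol Emr1, Cd68, Csf1r, Cd14, Mrc1, Lyz2, Fcgr1, Mertk, Cd163 and Cx3cr1) were called higher in both models and higher in severe than moderate. Their summed level was 103 to 126 CPM in controls, 99.5 to 119 in FLExD, 437 to 547 in moderate and 997 to 1060 in severe mice. The summed level of 8 fibroblast markers was 1810 to 3020 CPM in controls, 3430 to 3500 in moderate and 4520 to 5360 in severe mice. Of these, Pdgfra, Lum and Col3a1 (3 of 8) were called higher in each model. With TMM, Dcn, Pi16 and Gsn (3 of 8) were called lower in the severe one, and Col1a1 and Dpt were called in neither. Mean TPM, which carries no TMM factor, went from 211 in controls to 282 in severe mice for Dcn. It went from 14.1 to 20.8 for Pi16 and from 433 to 423 for Gsn. The 8 neutrophil markers summed to 2.75 to 3.01 CPM in controls, 4.43 to 8.43 in moderate and 11 to 12.7 in severe mice. Of the 5 that passed the filter, Csf3r rose 6.59-fold in the moderate model and 14.4-fold in the severe one. Retnlg rose 8.72-fold and 12.3-fold, and S100a8 and Cxcr2 were called higher in severe mice only. In the moderate model S100a8 was at log2 0.23 (adjusted p = 0.701). Cxcr2 was at -0.34 (adjusted p = 0.176), with all moderate mice below all controls. S100a9 was called in neither model (0.5, adjusted p = 0.384, and 0.96, adjusted p = 0.0567). Ly6g, Elane and Mpo had at most 2 counts in any library. The 6 hepatocyte markers summed to 0.259 to 2.18 CPM over all 12 libraries, and Apoa1 had at most 3 counts. With TMM, other lists fell. The 6 endothelial markers summed to 150 to 167 CPM in controls, 95.1 to 125 in moderate and 66 to 78.4 in severe mice. Of them, 4 and then all 6 were called lower. This fall depended on scaling. Mean TPM went from 15.4 in controls to 23.9 in severe mice for Pecam1 and from 4.23 to 6.13 for Cldn5. It went from 12.6 to 13.1 for Cdh5, 5.41 to 5.89 for Tek, 5.6 to 5.53 for Emcn and 6.07 to 2.76 for Kdr. The 3 erythroid markers summed to 211 to 253, 98.3 to 195 and 18.2 to 47 CPM, with 1 and then all 3 called lower. The part of these cell types in the changes of the members was not tested.

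The members were then set against the summed macrophage markers, a sum that is weighted to its most abundant genes. C1qa was 8.96% to 10.2% of the summed macrophage markers in controls and 10.1% to 13.8% in FLExD mice. It was 12.7% to 16.6% in moderate and 16.2% to 16.8% in severe mice, so against controls it rose more than their sum. The moderate values of C1qa overlapped those of FLExD mice. C1qb rose more than the sum too. It was 6.29% to 9.1% in controls, 7.27% to 10.3% in FLExD, 11.2% to 13.4% in moderate and 14.2% to 15.2% in severe mice. C1qc was 7.57% to 10.3% in controls, 8.32% to 11.4% in FLExD, 9.25% to 11.5% in moderate and 11.4% to 11.9% in severe mice, so the moderate values overlapped the controls and the severe ones lay above them. Single markers differed from the sum. Cd68 rose 39.7-fold, Fcgr1 38.1-fold and Cx3cr1 51.8-fold in the severe model, more than any C1q chain, while the abundant Lyz2 rose 14-fold, Csf1r 6.92-fold, Mrc1 6.25-fold and Cd163 4.32-fold. Cfb kept pace with the sum, at 4.54% to 5.22% in controls, 5.13% to 6.47% in moderate and 4.46% to 4.78% in severe mice.

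The other members rose less than the macrophage sum in the severe model. Cfp went from 4.2% to 4.25% in controls to 2.14% to 2.23% in severe mice, and C4b from 9.72% to 17.5% to 5.56% to 7.56%. In moderate mice C4b was at 9.55% to 11.5%, which overlapped the controls. C3 went from 99.8% to 121% in controls to 38.5% to 48.1% in moderate and 17.6% to 26.3% in severe mice, Serping1 from 35.3% to 41.7% to 6.49% to 7.61% in severe mice, and C2 from 2.69% to 3.2% to 0.493% to 0.526%. Relative to the fibroblast sum, C3 was 4.67% to 6.28% in controls, 6.01% to 6.41% in moderate and 3.47% to 5.8% in severe mice, and Serping1 1.6% to 2.17%, 2.04% to 2.13% and 1.28% to 1.68%. The fibroblast sum is also weighted to its most abundant genes, which moved in opposite ways with TMM. The mean of Col3a1 went from 328 CPM in controls to 3130 in severe mice, and that of Gsn from 1240 to 515. A ratio to this sum therefore does not measure a level per fibroblast. Which cells made each transcript was not tested.

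**Figure D4:**
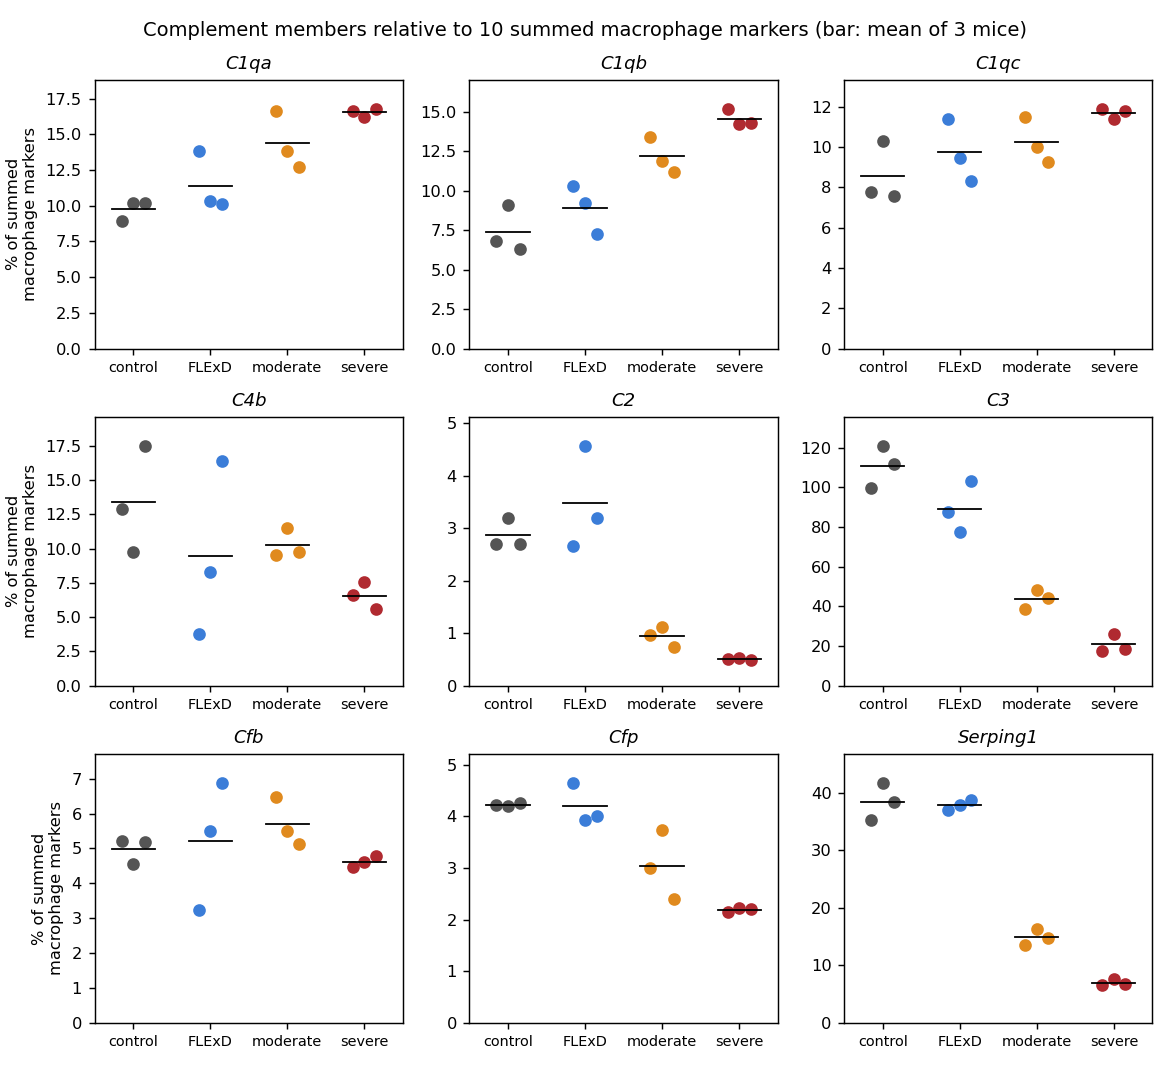
Each member as a percentage of the summed CPM of 10 macrophage markers in the same library, on linear axes from 0; points are mice and the bar is the mean of 3. The C1qa and C1qb panels climb from control to severe, C1qc overlaps between control and moderate mice, Cfb stays near 5%, and C2, C3 and Serping1 fall in every model mouse below all control mice.

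Of 45 other complement genes listed by role, 44 were in the table and 31 passed the filter. In the moderate model 13 were called higher and 6 lower, in the severe model 14 higher and 7 lower, and from moderate to severe 9 higher and 6 lower. Over all genes tested the shares called higher and lower were 24.4% and 17% for moderate, 32.9% and 27.9% for severe, and 17.6% and 18.8% for severe against moderate. The median log2 fold change of the 31 was 0.51 (moderate) and 0.31 (severe). Calls of lower expression depended on scaling: with library size alone, 23 were called higher and 2 lower in the severe model. No gene was called between FLExD and control by edgeR, and 2 of 31 had an unadjusted p under 0.05.

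The proteases that C1q carries changed by amounts near those of C3. C1ra was at 15.5 to 17.2 CPM in controls, 27.6 to 33.7 in moderate and 26.3 to 31.9 in severe mice. It rose by 0.89 in the moderate (SE 0.1, adjusted p = 3.26e-06) and 0.82 in the severe model (SE 0.1, adjusted p = 2.83e-06) on the log2 scale, and the 2 models overlapped. C1s rose by 0.71 in the moderate model (SE 0.1, adjusted p = 2.5e-05), while its value of 0.46 in the severe model (adjusted p = 0.00056) was under the fold threshold.

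In the lectin pathway, the recognition proteins Fcna (ficolin A) and Colec12 (a collectin scavenger receptor) rose in both models. Fcna was at 3.63 to 4.44 CPM in controls, 8.81 to 11.8 in moderate and 17 to 22.2 in severe mice, a log2 change of 1.32 (SE 0.15, adjusted p = 5.39e-06) and 2.22 (SE 0.15, adjusted p = 8.78e-09). Colec12 changed by 0.69 and 1.2. The mannose-binding lectins Mbl1 and Mbl2 had 0 counts in all 12 libraries, which allows up to 0.0676 to 0.155 CPM in a library. Masp1, a lectin pathway protease, was called lower in the moderate model (log2 -0.86, adjusted p = 0.0307), and that call was lost without control mouse 1246 (adjusted p = 0.149), moderate mouse 1236 (0.0631) or moderate mouse 1331 (0.0829). It was also lost with library size alone (log2 -0.25, adjusted p = 0.474), with limma on log2(TPM + 1) (-0.18, adjusted p = 0.3) and with limma on log2(TPM + 0.1) (-0.36, adjusted p = 0.251).

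Factor D, the fat cell product also called adipsin that activates factor B, went the other way from Cfb. Cfd was at 72.3, 74.9 and 92.1 CPM in controls and at 67, 118 and 149 CPM in FLExD mice. It was at 45.1, 53.5 and 94.5 CPM in the moderate and at 17.5, 28.4 and 58.6 CPM in the severe mice. The FLExD, moderate and severe mice spread more widely than the controls, and the severe mice lay below all controls. Its log2 change of -1.2 in the severe model (SE 0.47, adjusted p = 0.0458) was at the edge of the threshold. It was lost without control mouse 1127 (adjusted p = 0.0684), 1246 (0.111) or 1349 (0.0749), FLExD mouse 1367 (0.0593), moderate mouse 1236 (0.0513) or 1331 (0.0581), or severe mouse 1047 (0.142) or 1079 (0.127). With library size alone the value was 0.1.

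The terminal pathway, whose proteins C5 to C9 form the lytic pore, was barely present. Hc, which encodes C5, had 0 counts in 11 libraries and 1 in the other, and C8a and C9 had at most 1 count in any library. C6 rose from 3 to 6 counts in controls to 13 to 52 in moderate and 68 to 82 in severe mice (log2 2.13, SE 0.54, adjusted p = 0.0042, and 3.01, SE 0.5, adjusted p = 8.88e-05). C8b had 0 counts in all control and FLExD mice, 4, 5 and 14 in the moderate and 26, 36 and 40 in the severe mice. Against the floor of 3 counts per control library, the severe mean of C8b was at least 5.39-fold higher (adjusted p = 9.3e-05). C8g fell by 0.85 in the moderate (adjusted p = 0.0198) and by 1.88 in the severe model (adjusted p = 4.97e-05), calls that were lost with library size alone (adjusted p = 0.453 and 0.0799), and the moderate one also without control mouse 1246 (0.0756) or moderate mouse 1236 (0.0745). C7, at 18 to 34 counts in controls and 43 to 92 in severe mice, was not called (log2 0.31, adjusted p = 0.537).

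Of the 9 listed regulators that passed the filter and are reported here, 4 were called lower in moderate mice and 5 in severe mice, and Susd4 alone was called higher. Of all genes tested, 17% and 27.9% were called lower in these comparisons. Susd4, a membrane regulator of the C3 convertases, had 0 to 3 counts in controls, 108 to 119 in the moderate and 22 to 55 in the severe mice. It was called higher in both models and lower in the severe than in the moderate one (log2 -2.2 for severe over moderate, SE 0.36, adjusted p = 0.000227).

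Cd55, a membrane protein that takes the C3 convertases apart, went down with severity. It was at 65.4, 70.2 and 76.9 CPM in controls, at 44.7, 44.8 and 51 CPM in the moderate and at 15, 20 and 22.6 CPM in the severe mice, with no overlap between these groups. It fell by 0.6 in the moderate (SE 0.14, adjusted p = 0.00193) and by 1.88 in the severe model (SE 0.14, adjusted p = 2.66e-08). With library size alone, the moderate value was 0.01 and not called, and the severe value was -0.59 and still called lower.

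The other regulators called lower were less firm under other scalings, except Clu. Clu (clusterin), an inhibitor of pore assembly, fell from 31.1 to 38.4 CPM in controls to 4.17 to 7.12 CPM in severe mice, by 1.75 in the moderate (adjusted p = 4.02e-05) and by 2.65 in the severe model (adjusted p = 5.77e-07), and was called lower against control under every setting run. Vtn (vitronectin) had log2 changes of -0.7 and -1.29 and Cd46 of -0.93 and -1.24, but with library size alone the severe values were 0.02 and 0.06. Cd59a, which blocks the lytic pore, was not called against control (0.51, adjusted p = 0.121, and -0.44, adjusted p = 0.158). It was called lower in the severe than in the moderate model (-0.95, adjusted p = 0.00954), but not with library size alone (-0.26, adjusted p = 0.31). Cd59b was called lower in the severe model (-0.61, adjusted p = 0.0128), although its severe and control mice overlapped. With library size alone Cd59b was at 0.7, called higher. Cr1l, the rodent regulator Crry, was at 38.8 to 39.1 CPM in controls and 24.8 to 30.9 in severe mice, and its log2 change of -0.45 (SE 0.08, adjusted p = 0.000228) was under the fold threshold. With library size alone it was 0.85, called higher.

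The receptors had the highest median of these lists. Of 9 receptors, 6 were called higher in moderate and 8 in severe mice, against 24.4% and 32.9% of all genes tested. Their median log2 fold change was 2.73 (moderate) and 3.72 (severe). C3ar1, the receptor for the C3a fragment, was at 1.09 to 1.64 CPM in controls, 11.6 to 15.6 in moderate and 36.5 to 42.1 in severe mice, a rise of 3.29 (SE 0.17, adjusted p = 6.9e-09) and 4.77 (SE 0.17, adjusted p = 7.17e-11) on the log2 scale. C5ar1, the receptor for C5a, rose by 2.71 (SE 0.2, adjusted p = 1e-07) and 3.64 (SE 0.2, adjusted p = 1.17e-09), in muscle where its ligand gene Hc was at or near 0 counts.

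Itgam and Itgb2, the chains of complement receptor 3 on myeloid cells, rose by 2.96 and 2.73 in the moderate and by 4.15 and 3.72 in the severe model, from 2.9 to 4.22 and 3.41 to 4.77 CPM in controls to 58.4 to 67.7 and 45.3 to 56.6 CPM. Itgax, the alpha chain of complement receptor 4, rose by 4.62 and 5.54. Vsig4, the C3b receptor of resident macrophages, had 0 to 1 counts in controls, 27 to 49 in moderate and 157 to 164 in severe mice. Cr2, the complement receptor of B cells, was not called in either model. The same macrophage markers described above rose with these receptors.

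**Figure D5:**
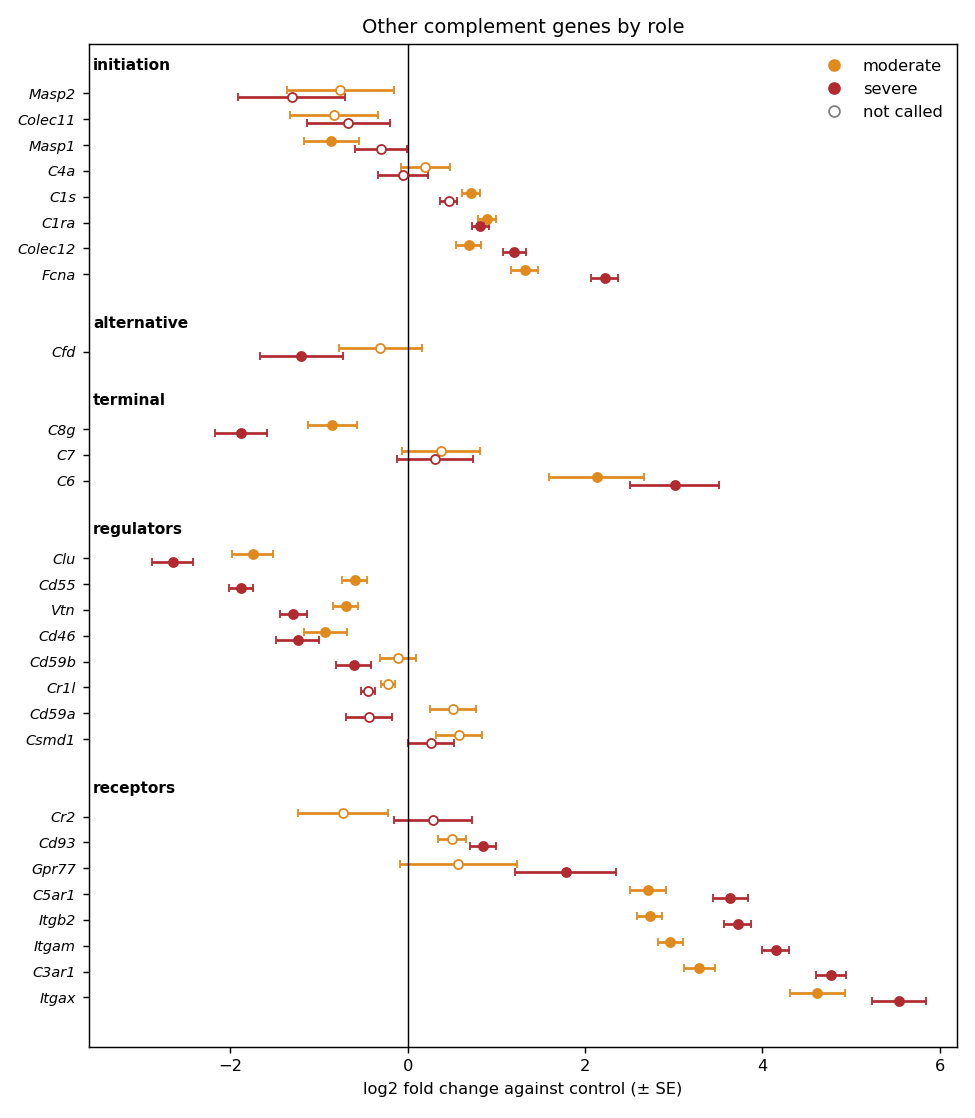
Log2 fold change against control, with bars of 1 SE, of 28 other complement genes by role in the moderate and severe models; filled points were called and open points were not, and 3 genes with at most 3 counts in every control (C8b, Susd4 and Vsig4) are left out. Receptors lie to the right of 0, apart from Cr2 in the moderate model, and most regulators lie to the left under TMM scaling.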

How the data were processed

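Gastrocnemius poly(A) RNA of 12 mice was sequenced by the authors as single-end reads of 50 bases on the HiSeq2500. Per the labels and the study's methods, the authors mapped reads with RSEM 1.2.4, modified to call Bowtie, to a merged annotation of mm10, and unaligned reads with TopHat 2.0.8b. The authors deposited expected counts of 37748 genes without normalization and a table of TPM values. RSEM divides reads between genes, so 31.8% to 36.2% of the expected counts in a library were not whole, and they were rounded.

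Counts were tested with edgeR 4.0.16 in R 4.3.3 (filterByExpr, TMM, robust quasi-likelihood F-test, 1 fit of 4 groups, Benjamini-Hochberg adjustment over 16679 genes). TMM is the normalization named in the study's methods. SEs came from the F statistic. Replicates are separate mice. The tests were tried on simulated data. The members and gene lists were chosen with earlier results of these data known. Named genes were the 9 members, a fixed set of complement genes by role, the called genes with the largest rise and fall of each role, and the genes most like a member with a mean of at least 10 counts. Other complement genes by role were named after their values were seen. From the lists by role, 1 gene is not reported here; all counts given exclude that gene.

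Sex is not in the sources used here. All 12 libraries had 0 or 1 counts of the Y-linked genes Ddx3y and Eif2s3y, 0 to 6 of Kdm5d and 2 to 15 of Uty. The X-linked transcript Xist had 2600 to 16809 counts. By these transcripts all 12 mice read as female. Depth was 23796902 to 29136403 counts per library, and the floor of 3 counts covers counting error only. Gene positions came from GENCODE M21, which held 35982 of the 37748 identifiers. Shared windows were counted against its transcripts. Alternatives were DESeq2 1.42.0, library size alone, median-of-ratios factors, limma 3.58.1 on log2(TPM + 1) and log2(TPM + 0.1), other filters, only the 2 groups compared, other fold thresholds and each mouse left out. Figures were drawn with matplotlib in Python.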

Additional observations from a re-analysis of the deposited data

How the results depend on the processing

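The calls against control held under every alternative for the C1q chains, Cfb and Cfp. For C4b and C2 the losses in the moderate model were those named above. With TMM, C2, C3 and Serping1 did not reach a log2 fold of 1 against control. With library size alone they did, at 1.13, 1.38 and 1.36 in the moderate and 1.99, 2.07 and 2.03 in the severe model. Over all member values, 756 kept their side of the threshold, among them 18 that changed sign without a call in either analysis, 26 lost a call, 4 gained one and 6 changed sign with a call. The count of members called higher from moderate to severe (5) was 8 with library size alone, 9 with limma on log2(TPM + 1), 8 with limma on log2(TPM + 0.1) and 3 at a log2 fold of at least 1; leaving out a mouse gave 3 to 5, the lowest without moderate mouse 1331. Of the other complement genes, the 6 called lower in the moderate model became 1 with library size alone, either limma fit or a log2 fold of at least 1; the 14 higher in the severe model became 23 with library size alone or limma on log2(TPM + 0.1) and 9 with at least 10 counts in every sample, and the 7 lower became 2 with library size alone or either limma fit. From moderate to severe, 9 higher became 15 with library size alone and limma on log2(TPM + 1), 16 with limma on log2(TPM + 0.1) and 4 at a log2 fold of at least 1, and 6 lower became 2 under each of those scalings and 3 at that fold.

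Changes of sign that involved a call occurred only with library size alone and the limma fits, which lack a TMM factor and shift the median of all genes by 0.65 and 0.29 (moderate against control), 1.39 and 0.79 (severe against control) and 0.72 and 0.49 (severe against moderate) for library size and limma with 1 added. Severe over moderate, in the order library size, limma with 1 and with 0.1 added, C3 was 0.69, 0.66 and 0.67, Serping1 0.67, 0.68 and 0.69, C1ra 0.62, 0.62 and 0.65, Vtn 0.11, 0.14 and 0.16, and Cr1l, in the limma fits, 0.51 and 0.52. Severe over control, Cd59a was 0.85, 0.68 and 0.73, Cd59b 0.7, 0.46 and 0.51, and Cr1l 0.85, 0.95 and 0.99. With library size and limma with 0.1 added, C4a was 1.25 and 0.53 and Masp1 1 and 0.61. With library size alone, Cfd was 0.1, Cd46 0.06 and Vtn 0.02, and in the moderate model Cd55 was 0.01. With limma on log2(TPM + 1) the moderate values of C6 and C8b, genes with few counts, were 0.41 (adjusted p = 0.00237) and 0.21 (adjusted p = 0.0305), under the fold threshold of 0.5, and both calls held with 0.1 added.

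No paired analysis was possible because the groups share no replicate number. A planned covariate of Y-linked transcripts was not run because they spanned less than the planned limit within groups. A group with 1 mouse left out keeps 2 mice, whose spread is estimated with the other groups.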
